A study of Mus musculus with 3 samples.

Results

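The first week of cementogenic induction in OCCM-30, an immortalised line of mouse cementoblasts, was read as the library of day 7 set against the library of day 0. The genes described are those that the deposited gene table types as protein-coding and that held at least 20 counts in the sum of both libraries, which was the case for 12046 of 22077 protein-coding genes and of 46095 genes in all. The other 10031 protein-coding genes were below that minimum, 2829 of them with at least 1 count, and are not described. The day 7 cells were labelled as kept under cementogenic differentiation for 7 days and the day 0 cells as not differentiated, and both were wild-type cells of the same line. A library of day 14 completes the study and is given beside some values. Each day had 1 library, so no difference had a replicate check, no p-value is given, and every interval covers counting error alone, because without molecular identifiers several reads can stem from 1 molecule. No culture of the same age without induction was analysed here, so induction and 7 days in culture cannot be told apart, and in bulk RNA a smaller number of cells of one kind and less RNA per cell cannot be told apart either.

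Cementoblasts line the tooth root and secrete cementum, a bone-like layer in which the collagen fibres of the periodontal ligament are anchored. Their programme overlaps with that of osteoblasts: RUNX2 and then osterix (Sp7) set the lineage, collagen I is laid down first, and alkaline phosphatase (Alpl) and acidic glycoproteins such as bone sialoprotein (Ibsp) come with mineral deposition. In many mesenchymal cells growth factor signalling through ERK and D-type cyclins belongs to the expanding state, while insulin-like growth factor, parathyroid hormone and steroid hormones act on the matrix-forming state.

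Library totals were 14034518 counts on day 7, 13224690 on day 0 and 14439666 on day 14, and the genes described took 93.6% of the day 7 counts and 95.1% of the day 0 counts. Values are CPM scaled with TMM factors unless FPKM, the authors' per-length value, is named. Genes are described as having risen or fallen on day 7 where they differed at least 2-fold from day 0 and the exact 95% counting interval of the ratio, given in brackets after a fold, excluded 1. By this rule 1172 genes rose, 9.73% of those tested, and 1325 fell, 11.0%, which together made 20.7%. Scaled by total counts alone, which moved the median log2 ratio by -0.15, 965 rose and 1677 fell. The median log2 ratio over all 12046 genes was -0.03, the middle 90% lay between -1.48 and 1.49, and 60.1% of genes were within 1.5-fold. A further 6437 genes differed by less than 2-fold with a counting interval that excluded 1. The share of genes described as changed therefore depends on the 2-fold rule. In the tails, 10-fold or larger differences were seen in 198 genes that rose and 169 that fell.

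The change was uneven over abundance. Among 2548 genes with a mean above 100 CPM, 231 rose and 72 fell, whereas among 2432 genes of 1 to 10 CPM 436 rose and 571 fell. Genes that rose held 13.1% of all counts on day 7, against 4.50% on day 0. Genes that fell held 1.75% on day 7, against 5.40% on day 0. Rises outnumbered falls above 100 CPM, and falls outnumbered rises in each class below it.

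**Figure D1:**
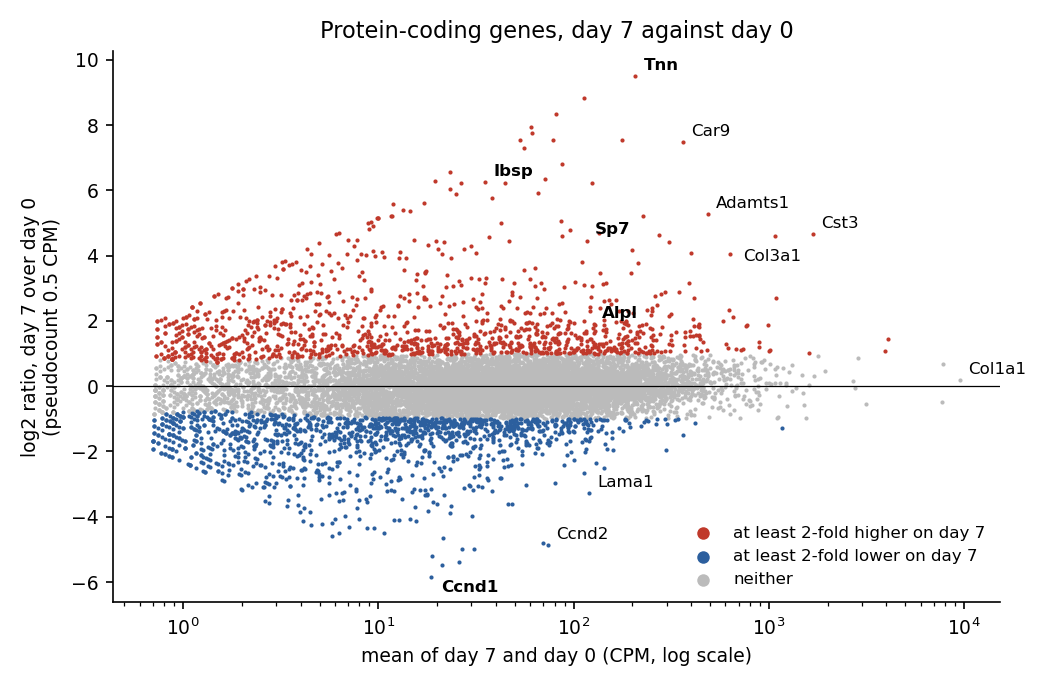
Each point is 1 of 12046 protein-coding genes; the horizontal axis is the mean CPM of day 7 and day 0 on a log scale and the vertical axis is the log2 ratio of day 7 over day 0. Coloured points passed the 2-fold rule with its counting interval (1172 higher, 1325 lower), and the markers Sp7, Ibsp, Alpl, Tnn and Ccnd1 are in bold. On the right of the plot, above 100 CPM, red points outnumber blue ones.

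Of the 5 marker genes chosen for the comparison, Tnn had the highest and Ccnd1 the lowest log2 ratio of all genes tested, with 0.5 CPM added to both days, and Sp7, Ibsp and Alpl rose. Sp7 had 3032 counts on day 7 and 138 on day 0, or 66.4 and 3.21 FPKM, and stood at place 793 of the genes ranked by FPKM on day 7 and at place 9541 on day 0. Ibsp had 948 counts on day 7, against 6 on day 0, and Alpl 2717 counts on day 7, against 756 on day 0. These lineage and mineral genes were high on day 7, but from unlike starting points: Alpl was already at 53.1 CPM on day 0, while Ibsp stood at 0.422 CPM. Tnn (chromosome 1, 160085029 to 160153692 in mm10), which encodes tenascin W, a glycoprotein of bone and tooth-supporting matrix, had 5620 counts on day 7 and 1 count on day 0, so its ratio has a counting interval of 1058 to 232996. Ccnd1 (chromosome 7, 144929931 to 144939937), cyclin D1, went the other way with 2 counts on day 7 and 527 on day 0. No replicate spread stands beside any of these values.

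Of 21 cementoblast and osteoblast markers 19 were tested, of which 11 rose and 1, the dentin matrix gene Dmp1, fell, with a median log2 ratio of 1.52 beside -0.03 over all genes. Pth1r, the parathyroid hormone receptor, had 60.3 CPM on day 7 and 3.09 CPM on day 0, 19.5-fold (14.4 to 27.1) higher. The homeobox factors Dlx3 and Dlx5 had 11.5 and 13.8 CPM on day 7, against 1.12 and 2.88 CPM on day 0, and both rose. Runx2 with 462 CPM on day 7 and 245 CPM on day 0 and Col1a1 with 10205 CPM on day 7 and 8914 CPM on day 0 did not pass the rule. Mepe and Cthrc1 had 0 counts on both days.

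The label of the cells was set against markers of other cell types. At 0 counts on both days were the macrophage genes Adgre1, Itgam, Aif1 and Tyrobp, the endothelial genes Cdh5, Kdr, Emcn and Erg, the epithelial genes Krt5, Epcam, Cldn4 and Esrp1, the cartilage genes Acan, Col10a1 and Col9a1, the fat cell genes Adipoq, Cidec and Lpl, the tendon gene Tnmd and the myogenic factor Myod1. Summed over each list, macrophage and osteoclast markers had 8.95 FPKM on day 7 and 10.6 FPKM on day 0, epithelial markers 0.213 and 2.06 FPKM, and chondrocyte markers 10.5 and 8.45 FPKM. Of the 5 macrophage and osteoclast markers tested Acp5 and Mrc1 rose and none fell (median 0.61), although the list's sum in FPKM was lower on day 7. Krt8, the only epithelial marker tested, fell, and of 4 chondrocyte markers Comp rose and Col2a1 and Matn3 fell. Skeletal and smooth muscle genes had 212 FPKM on day 7 and 85.1 FPKM on day 0, and 9 of their 13 tested members rose, among them the cardiac and skeletal chaperone Hspb7 (1448 counts against 1), the junctophilin Jph2 (9.05-fold (6.96 to 11.9)) and the smoothelin gene Smtn (3.97-fold (3.71 to 4.26)). One muscle gene, the troponin Tnnc1, fell 11.6-fold (6.44 to 22.95). All 3 tested adipocyte markers, Plin4, Cebpa and Car3, rose, Car3 under 2-fold when scaled by total counts, and Plin4, a lipid droplet protein gene, had 90.1 CPM on day 7 and 3.65 CPM on day 0. Summed over their lists, adipocyte markers had 24.1 FPKM on day 7 and 3.11 FPKM on day 0, endothelial markers 29.3 and 15.4 FPKM, and tendon and ligament markers, with Postn, 447 and 154 FPKM. By members, 1 of 4 tested endothelial markers rose and 1 fell (median 0.18), and of 7 tested tendon and ligament markers Postn and Aspn rose and 4, Cd34, Scx, Ly6a and Mkx, fell (median -1.02). What part cells of these kinds could have in the results was not tested.

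The promoters of 3 markers and of Car9, Mt1 (a metallothionein gene) and Asns are shown, because the markers differ in the elements near their starts and the other 3 carry elements of the hypoxia, glucocorticoid and amino acid responses. Each line gives 150 bases upstream of the start in RefSeq's promoter table (GRCm38.p6), 5′ to 3′ on the gene's own strand, with matches to a searched motif in capitals. They are Ibsp (chr5:104299137-104299286, plus strand), Alpl (chr4:137796385-137796534, minus strand), Tnn (chr1:160153576-160153725, minus strand), Car9 (chr4:43506876-43507025, plus strand), Mt1 (chr8:94178939-94179088, plus strand) and Asns (chr6:7693210-7693359, minus strand).
Ibsp: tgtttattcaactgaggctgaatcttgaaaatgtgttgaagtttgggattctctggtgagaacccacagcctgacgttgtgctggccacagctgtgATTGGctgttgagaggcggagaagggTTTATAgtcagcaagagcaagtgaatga
Alpl: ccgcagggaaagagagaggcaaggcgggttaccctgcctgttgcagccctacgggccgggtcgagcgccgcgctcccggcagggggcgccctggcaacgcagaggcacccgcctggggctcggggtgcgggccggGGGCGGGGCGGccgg
Tnn: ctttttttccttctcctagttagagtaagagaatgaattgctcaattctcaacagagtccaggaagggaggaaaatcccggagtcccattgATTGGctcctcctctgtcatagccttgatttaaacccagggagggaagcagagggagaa
Car9: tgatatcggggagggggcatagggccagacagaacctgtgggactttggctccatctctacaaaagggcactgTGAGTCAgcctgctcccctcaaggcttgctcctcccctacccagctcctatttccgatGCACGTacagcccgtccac
Mt1: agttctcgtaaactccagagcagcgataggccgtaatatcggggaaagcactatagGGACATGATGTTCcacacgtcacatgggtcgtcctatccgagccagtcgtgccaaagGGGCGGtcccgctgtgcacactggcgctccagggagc
Asns: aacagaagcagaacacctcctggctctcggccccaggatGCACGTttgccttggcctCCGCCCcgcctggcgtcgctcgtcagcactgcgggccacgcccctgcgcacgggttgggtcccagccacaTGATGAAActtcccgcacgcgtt
All motifs searched were marked. In Ibsp the capitals mark a CCAAT box, 54 to 50 bases before the start, and a TATA box, 28 to 23 bases before it, both on the opposite strand. In Alpl they mark a pair of overlapping GC boxes, 15 to 5 bases before the start. In Tnn they mark a CCAAT box on the opposite strand, 59 to 55 bases before the window's start. That start lies 117 bases downstream of the gene's listed start, so the box falls inside the gene as listed for the counts. Car9, the hypoxia-induced carbonic anhydrase IX gene, has the hypoxia element core on the opposite strand 19 to 14 bases before its start and an AP-1 site 77 to 71 bases before it. Mt1 has the glucocorticoid receptor palindrome 94 to 82 bases before its start and a GC box 37 to 32 bases before it. Asns, asparagine synthetase, has the amino acid response element 23 to 16 bases before its start and, on the opposite strand, a GC box 93 to 88 bases and the hypoxia element core 111 to 106 bases before it, so Car9 and Asns both hold that core. Car9 had 719.7 CPM on day 7 and 3.51 CPM on day 0, Mt1 147 CPM on day 7 and 46.7 CPM on day 0, and Asns 65.8 CPM on day 7 and 224 CPM on day 0, so the first 2 rose and Asns fell. A match is a run of letters, not a measured binding site.

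By amount of message, the largest gain was that of Sparc, osteonectin, a collagen-binding glycoprotein of mineralised matrix, with 5987 CPM on day 7 and 2189 CPM on day 0. Cst3, the secreted cysteine protease inhibitor cystatin C, had 3929 FPKM on day 7 and 173 FPKM on day 0, which put it at place 2 of all tested genes by FPKM on day 7 and at place 184 on day 0. Its rise was 25.4-fold (24.2 to 26.6). Fn1, fibronectin, had 5369 CPM on day 7 and 2518 CPM on day 0 and was above 2-fold with TMM factors and below it by total counts. Lnpep, a membrane aminopeptidase of glucose transporter vesicles, had 1553 CPM on day 7 and 423 CPM on day 0. Also among the 15 largest gains were the collagen genes Col1a1, Col1a2, Col3a1 and Col5a2, the crosslinking genes Lox and Plod2, Postn, the protease gene Adamts1, the pyruvate kinase gene Pkm and the chaperone gene Hsp90b1. Of these, Col1a1, Col1a2, Pkm and Hsp90b1 were less than 2-fold higher and did not pass the rule. Col5a2 passed it with TMM factors but not by total counts or DESeq2 size factors. Most of the genes named here encode matrix proteins or enzymes that crosslink, modify or cleave them.

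The 15 largest losses were of another kind. They held the cytoskeletal genes Actb, Flna, Plec and Dst, the lipid synthesis genes Scd2 and Fasn, the mitochondrial transcripts COX1, CYTB, ND1 and ND5, and Hsp90ab1, H3f3b, Eif4g1, Rnf213 and Amot. Flna, the actin crosslinker filamin A, had 678 CPM on day 7 and 1655 CPM on day 0, 2.44-fold (2.38 to 2.501) lower. Amot, angiomotin, which binds the YAP coactivator, had 122 CPM on day 7 and 471 CPM on day 0, 3.87-fold (3.67 to 4.09) lower, and Rnf213, a large ubiquitin ligase, 189.6 CPM on day 7 and 541 CPM on day 0, 2.85-fold (2.73 to 2.99) lower. Only these 3 of the 15 passed the rule, and the other 12 were less than 2-fold lower; Scd2, Fasn, Plec, ND5 and Hsp90ab1 passed it when scaled by total counts.

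**Figure D2:**
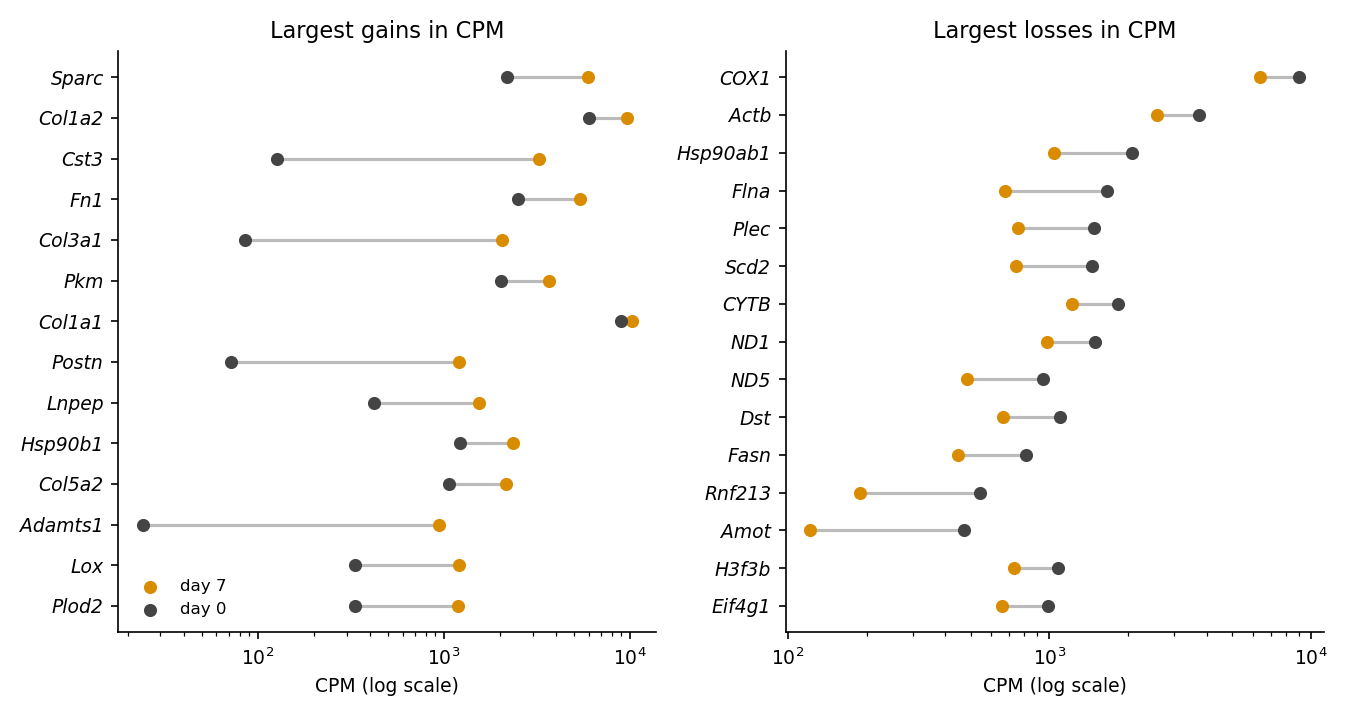
Points give the CPM on day 7 (orange) and day 0 (dark) on a log scale for 14 of the 15 genes with the largest gain (left) and the 15 with the largest loss (right), 1 library a day. Cst3, Col3a1, Postn and Adamts1 span more than 10-fold, whereas the largest losses span less than 4-fold.

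Growth factor receptors moved in both directions. Of 20 tested receptor tyrosine kinase genes 5 rose and 4 fell, with a median log2 ratio of 0.03 that was -0.12 by total counts. Fgfr3 had 261 CPM on day 7 and 9.63 CPM on day 0, 27.1-fold (22.8 to 32.3) higher, and Fgfr2 had 281 CPM on day 7 and 69.4 CPM on day 0, 4.05-fold (3.77 to 4.34) higher, while Fgfr1, with 301 CPM on day 7 and 255 CPM on day 0, did not pass the rule. Igf1r, the insulin-like growth factor receptor, had 683 CPM on day 7 and 190.0 CPM on day 0, 3.59-fold (3.44 to 3.75) higher, Mertk, a receptor for the uptake of dying cells, rose 4.85-fold (4.31 to 5.46), and Insr passed 2-fold with TMM scaling but not by total counts. Receptors that fell were Met (3.75-fold (3.35 to 4.21)), Axl (2.36-fold (2.23 to 2.49)), Pdgfrb (2.34-fold (2.18 to 2.51)) and Egfr (2.11-fold (1.902 to 2.34)). On day 7 Igf1r, Fgfr2, Fgfr3 and Mertk were thus high and Met, Axl, Pdgfrb and Egfr low relative to day 0.

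The genes of cAMP and G protein coupled signalling had 8 of 27 up and 4 down (median -0.13). Besides Pth1r, Pde7b, a cAMP phosphodiesterase, had 360 counts on day 7 and 2 on day 0, and Ramp1, the partner of the calcitonin gene-related peptide receptor, had 41.6 CPM on day 7 and 3.51 CPM on day 0. Those that fell were Pde4b (14.4-fold (10.2 to 20.9)), Adcy7 (4.86-fold (4.399 to 5.38)), Pde3a and Adra1b. Gnas, the stimulatory G protein to which Pth1r couples, had 978 CPM on day 7 and 820.2 CPM on day 0 and did not pass the rule. Some receptors and phosphodiesterases of the list thus passed the rule. Another 15 of the 27 did not, among them Gnas, the receptors S1pr1 and F2r and the phosphodiesterases Pde4a and Pde4d.

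Of 19 bone hormone and nuclear receptors 4 rose, Rora, Nr1d1, Esr1 and Nr1h2, and 2 fell, Ppard and Nr2f1, while 3 rose and 4 fell by total counts. Rora, an orphan receptor of the clock loop, had 423 CPM on day 7 and 80.9 CPM on day 0, and Esr1, the oestrogen receptor alpha gene, only 53 counts on day 7 and 9 on day 0. Nr1h2 lost its call by total counts. Nr3c1, the glucocorticoid receptor, had 229 CPM on day 7 and 160.3 CPM on day 0 and did not pass the rule. In retinoid, steroid and vitamin metabolism 4 of 10 genes rose and 2 fell: Rbp4, the plasma retinol carrier, had 104 counts on day 7 and 6 on day 0, Fkbp5, a co-chaperone of steroid receptors, 103 and 10, and Dhrs3, a retinal reductase, rose 2.71-fold (2.302 to 3.19). Crabp2, which carries retinoic acid to its receptor, fell 4.78-fold (4.12 to 5.57), and Rdh10, a retinol dehydrogenase, fell 2.23-fold (1.76 to 2.83). The retinoid genes were therefore divided between carriers and enzymes of both directions, and Cyp27b1, the vitamin D 1-alpha-hydroxylase, had 17 counts against 7, a call that total counts and DESeq2 size factors end.

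In the ERK output list more genes fell than rose. In a mixed list of PI3K, mTOR and FOXO genes more rose than fell. Which way PI3K signalling itself changed was not tested. Of 30 RAS-ERK feedback and output genes 3 rose and 13 fell, with a median log2 ratio of -0.51. Etv4, an ETS factor induced by FGF and ERK, had 3 counts on day 7 and 199 on day 0, Dusp4, an ERK phosphatase, 7 and 92, and Phlda1, another immediate ERK target, 21 and 152. The EGF family ligand Ereg had 0 counts on day 7, at least 18.1-fold lower than on day 0. Errfi1, an inhibitor of the EGF receptor, Dusp1, a phosphatase of stress kinases, and Myc rose, Dusp1 with 86.6 CPM on day 7 and 16.2 CPM on day 0. Both abundant members of the list, Spred1 and Epha2, stayed within 2-fold.

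Among 36 genes of PI3K, mTOR and FOXO output 15 rose and 3 fell, with a median of 0.85. Klf15, a metabolic Kruppel-like factor, had 675 counts on day 7 and 5 on day 0. Trim63, the MuRF1 ubiquitin ligase named for muscle and a FOXO target there, had 32.6 CPM on day 7 and 2.39 CPM on day 0, Sgk1, a kinase of the AKT family, 221 CPM on day 7 and 25.8 CPM on day 0, and Bcl6, a repressor induced by FOXO factors, 114 CPM on day 7 and 13.2 CPM on day 0. Txnip, the thioredoxin inhibitor that limits glucose uptake, had 553 CPM on day 7 and 196 CPM on day 0 and rose 2.82-fold (2.700 to 2.95). Trib3, Sesn2 and Sesn3, stress-induced regulators of AKT and mTORC1, fell, Trib3 with 8.63 CPM on day 7 and 63.6 CPM on day 0. Klf15, Trim63 and Sgk1 are also known as genes that glucocorticoids induce; the labels do not list what the medium contained.

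The D cyclins Ccnd1 and Ccnd2 fell, and genes of the later cell cycle did not pass the rule. Of 26 G1 genes, the cyclins, kinases, inhibitors and E2F factors, 2 rose, 7.69% beside 9.73% of all genes, and 3 fell, 11.5% beside 11.0%. Their median was 0.04, or -0.12 by total counts. Besides Ccnd1, Ccnd2 had 60 counts on day 7 and 2030 on day 0, 32.2-fold (24.9 to 42.4) lower, and the inhibitor Cdkn2b fell 3.62-fold (2.76 to 4.795). Cdkn1a, p21, rose 5.39-fold (4.78 to 6.097) and Rb1, the retinoblastoma gene that D cyclins inactivate, rose 3.12-fold (2.88 to 3.39). The other D cyclin gene, Ccnd3, had 93.2 CPM on day 7 and 77.7 CPM on day 0 and did not pass the rule. Cdk4, the partner kinase of the D cyclins, had 144 CPM on day 7 and 258 CPM on day 0. None of 40 DNA replication and mitosis genes passed the rule in either direction (median 0.05, or -0.11 by total counts): Top2a had 1459 CPM on day 7 and 1088 CPM on day 0, Mcm7 391 CPM on day 7 and 369.8 CPM on day 0, Pcna 298 CPM on day 7 and 259.7 CPM on day 0 and Foxm1 137 CPM on day 7 and 166 CPM on day 0. Low Ccnd1 and Ccnd2 messages on day 7 thus stood beside Ccnd3 and replication messages within 2-fold of day 0.

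Falls outnumbered rises among guidance, cytokine and chemokine genes. Of 47 axon guidance ligands and receptors 5 rose and 19 fell (median -0.65). The class 3 semaphorin Sema3e had 2.51 CPM on day 7 and 43.9 CPM on day 0 and its neighbour Sema3d 2 counts on day 7 and 43 on day 0. Plxna2, a semaphorin receptor, fell 7.08-fold (5.01 to 10.3), whereas Nrp1, a shared semaphorin and VEGF receptor, had 143 CPM on day 7 and 42.3 CPM on day 0, 3.38-fold (3.09 to 3.71) higher, and Slit3, an osteoblast and vessel guidance ligand, had 53.99 CPM on day 7 and 13.6 CPM on day 0, 3.96-fold (3.38 to 4.66) higher. Plxnb1 lost its rise by total counts, and the other risers were Plxnc1 (22 counts against 1) and Plxnb3. Ligands led the falls, and the abundant receptors Plxnb2, Nrp2 and Neo1 stayed within 2-fold, Plxnb2 with 634 CPM on day 7 and 761 CPM on day 0.

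Of 24 osteoclast-regulating cytokines and cytokine receptors 4 rose and 10 fell (median -0.42). The risers were Lifr, with 646 CPM on day 7 and 178 CPM on day 0, Il11ra1, with 79.8 CPM on day 7 and 24.5 CPM on day 0, Il6ra, with 35.6 CPM on day 7 and 13.9 CPM on day 0, and the ligand gene Il15. Lifr, Il11ra1 and Il6ra encode receptor chains that pair with gp130, whose gene Il6st had 279 CPM on day 7 and 227 CPM on day 0 and did not pass the rule, while the ligand gene Lif fell 4.86-fold (2.95 to 8.43). Tnfsf11, RANKL, the inducer of osteoclasts, had 41 counts on day 7 and 89 on day 0, and its decoy receptor gene Tnfrsf11b 12 and 128. Both counts of that pair were lower on day 7 than on day 0. Of 11 chemokine genes and receptors 8 fell and 1, the decoy receptor Ackr2, rose (26 counts against 2). Cxcl12, the chemokine of stem cell niches, had 9.29 CPM on day 7 and 56.4 CPM on day 0 and Cx3cl1, a membrane-bound chemokine, 12.2 CPM on day 7 and 54.3 CPM on day 0.

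Of 38 bHLH and Id factors 14 rose and 5 fell (median 0.50). Hif3a, a HIF family member that lacks the strong activation domain of its relatives, had 3082 counts on day 7 and 0 on day 0, at least 1078-fold higher. Hey1, a Notch and BMP target, had 16.6 CPM on day 7 and 1.76 CPM on day 0, the clock factor Npas2 10.03 CPM on day 7 and 1.05 CPM on day 0, and Mxd4, an antagonist of MYC, 149 CPM on day 7 and 24.9 CPM on day 0. Scx, Twist2, Arnt2, Hes1 and Heyl fell, Arnt2 with 6 counts on day 7 and 83 on day 0. Srebf2 and Arnt, the abundant members, stayed within 2-fold.

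Of 18 KLF and SP factors 7 rose and 3, Sp8, Klf4 and Klf16, fell (median 0.32). Klf9, a zinc finger factor of the steroid response, had 203 CPM on day 7 and 40.6 CPM on day 0, and Klf2 had 52.3 CPM on day 7 and 2.39 CPM on day 0. Sp8, a limb bud relative of osterix, had 2.88 CPM on day 7 and 22.6 CPM on day 0, 7.84-fold (5.61 to 11.2) lower, so Sp7 and Sp8 moved in opposite directions. Sp1 and Sp3, the ubiquitous members, did not pass the rule. Of 5 SOX factors tested 3 fell and none rose: Sox11, a progenitor factor, had 6 counts on day 7 and 219 on day 0, Sox4 351 and 957, and Sox12 203 and 480. Sox9, the cartilage factor, had 41.5 CPM on day 7 and 25.8 CPM on day 0 and stayed within 2-fold.

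Among 35 homeodomain factors outside the Hox clusters 6 rose and 3, Lhx6, Hhex and Mkx, fell (median -0.23). That was 17.1% and 8.57%, beside 9.73% and 11.0% of all genes. Zeb2, a SMAD-binding repressor, had 339.7 CPM on day 7 and 94.3 CPM on day 0, and Prrx1, a limb and jaw mesenchyme factor, 1359 CPM on day 7 and 641 CPM on day 0, a call that total counts end. Forkhead factors had 3 of 22 up, 13.6% beside 9.73% of all genes, and 1 down, 4.55% beside 11.0%. Foxn3 (2.77-fold (2.61 to 2.94)), Foxq1 and, not by total counts, Foxo1 rose, and Foxd1 fell 4.94-fold (3.74 to 6.605). The forkhead median was 0.13, or -0.03 by total counts. In the list of Smad, Tead, Tbx, Gata, Ets and Runx factors with MEF2 factors 7 of 45 rose and 6 fell. These shares, 15.6% and 13.3%, were near the 9.73% and 11.0% of all genes. The median of 0.01 was -0.15 by total counts. Smad6 and Smad9, which belong to the BMP branch, rose by 2.47-fold (2.11 to 2.91) for Smad6 and 2.88-fold (2.602 to 3.19) for Smad9, and Smad3, which belongs to the TGF-beta branch, had 49.7 CPM on day 7 and 106 CPM on day 0, 2.13-fold (1.94 to 2.33) lower. Smad1 and Smad5 of the BMP branch and Smad2 of the TGF-beta branch did not pass the rule, so neither branch moved as a whole. Gata3 had 14 counts on day 7 and 125 on day 0, and Fli1 1 and 30.

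Laminin chains changed in both directions. Of 26 basement membrane genes 11 rose and 7 fell, with a median of 0.11 that was -0.04 by total counts. Lamc3, laminin gamma 3, had 1649 counts on day 7 and 0 on day 0, at least 577-fold higher. Lama4 had 399 CPM on day 7 and 28.96 CPM on day 0, Lama3 65.4 CPM on day 7 and 6.11 CPM on day 0 and Lamb2 647 CPM on day 7 and 238 CPM on day 0, and their rises were 13.8-fold (12.5 to 15.3) for Lama4, 10.7-fold (8.57 to 13.5) for Lama3 and 2.71-fold (2.61 to 2.82) for Lamb2. Lama1 had 21.98 CPM on day 7 and 217 CPM on day 0 and Lamb1 42.4 CPM on day 7 and 243 CPM on day 0, 9.89-fold (8.78 to 11.2) and 5.74-fold (5.25 to 6.28) lower, and Lamb3 fell 4.07-fold (2.29 to 7.68). Per length, Lama4 had 63.7 FPKM on day 7 and 5.15 FPKM on day 0, and Lama1 2.23 and 24.6 FPKM. Lamb2 had 111 FPKM on day 7 and 45.6 FPKM on day 0, and Lamb1 7.09 and 45.3 FPKM. On this scale alpha 4 was above alpha 1, and beta 2 above beta 1, on day 7, while on day 0 alpha 1 was above alpha 4. Hspg2, perlecan, had 1266 CPM on day 7 and 1179.6 CPM on day 0 and did not pass the rule.

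Their receptors divided evenly, with 5 of 16 integrin genes up and 5 down (median 0.13, or -0.03 by total counts). Itga10, a collagen-binding subunit, had 295 CPM on day 7 and 91.8 CPM on day 0, and Itga1, another, 23.97 CPM on day 7 and 6.89 CPM on day 0. Itga11, also collagen-binding, rose with TMM factors but not by total counts. Itgbl1, an integrin-like secreted protein gene, rose 15.04-fold (9.94 to 23.8), and Itga8 had 21 counts against 6. Itga6, the laminin-binding alpha 6, had 12 counts on day 7 and 213 on day 0, Itga3, also laminin-binding, fell 2.33-fold (2.15 to 2.53), Itga9 had 0 counts on day 7 and 45 on day 0, and Itgb7 and Itgb3 fell 17.9-fold (13.2 to 24.97) and 3.33-fold (2.99 to 3.72). Subunits of collagen receptors were thus among those that rose and alpha 3 and alpha 6 of laminin receptors among those that fell, while the shared Itgb1 had 1274 CPM on day 7 and 889 CPM on day 0 and did not pass the rule.

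In the elastic fibre and fibulin list 10 of 25 genes rose and 4 fell (median 0.73). The fibrillins went in opposite directions: Fbn2, the developmental form, had 111 counts on day 7 and 10 on day 0, and Fbn1 had 1 count on day 7 and 77 on day 0. Tnc, tenascin C, had 706 CPM on day 7 and 78.6 CPM on day 0, Loxl1, an elastin crosslinker, 16.7 CPM on day 7 and 1.69 CPM on day 0, and Ltbp3, which holds latent TGF-beta in the matrix, fell 2.08-fold (1.92 to 2.24). Among 26 collagen chain genes matched by symbol 9 rose and 2 fell (median 0.53); Col18a1 had 92.9 CPM on day 7 and 19.3 CPM on day 0, Col6a3 387 CPM on day 7 and 115 CPM on day 0, and Col20a1, a fibril-associated collagen gene, 127 CPM on day 7 and 40.9 CPM on day 0. Col8a1, a network collagen gene of vessel walls, had 6.56 CPM on day 7 and 85.5 CPM on day 0, 13.03-fold (10.5 to 16.3) lower. These 4 collagens were chosen after their values were seen. Of 33 genes of glycosaminoglycan core proteins and enzymes 5 rose and 6 fell (median -0.005), or 2 and 8 by total counts (median -0.15), with Chst3, a chondroitin sulfotransferase, and Sdc4, syndecan 4, up 5.95-fold (4.64 to 7.71) and 2.92-fold (2.805 to 3.04), and Has2, the main hyaluronan synthase of mesenchyme, and Chst2 down 9.75-fold (5.51 to 18.8) and 4.33-fold (3.61 to 5.23); Gpc4 and Sdc3 rose with TMM factors but not by total counts or DESeq2 size factors.

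Proteases of the disintegrin, thrombospondin-type and serine kinds had 15 of 38 up and 5 down (median 0.32), or 13 up and 10 down by total counts. Adamts1, which cleaves versican and aggrecan, had 948 CPM on day 7 and 24.1 CPM on day 0, 39.3-fold (35.3 to 43.9) higher. Pappa, which cuts IGF-binding proteins, had 238 counts on day 7 and 1 on day 0, Htra1, a secreted serine protease, 1069.5 CPM on day 7 and 246 CPM on day 0, and Cpe, carboxypeptidase E, 453 CPM on day 7 and 81.3 CPM on day 0. Adamts6, Adamts14, Plau, Adamts7 and Htra3 fell, Adamts6 with 1.18 CPM on day 7 and 27.9 CPM on day 0 and Plau, urokinase, with 3.02 CPM on day 7 and 12.4 CPM on day 0. The family thus changed members, with Adamts1 up and Adamts6 and Adamts14, a procollagen N-proteinase, down 8.497-fold (6.01 to 12.3).

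Of 29 serpins, complement and secreted defence genes 10 rose and 7 fell (median -0.35), or 9 and 10 by total counts, and with a minimum of 100 counts the median was 0.04. Orm1, an acute phase carrier, had 527 counts on day 7 and 0 on day 0, at least 184-fold higher, and Cp, the copper ferroxidase ceruloplasmin, had 528 CPM on day 7 and 20.9 CPM on day 0, 25.2-fold (22.5 to 28.4) higher. The intracellular clade B serpins Serpinb1a, Serpinb9b, Serpinb2 and Serpinb9 led the falls, Serpinb9 with 6.27 CPM on day 7 and 19.6 CPM on day 0; Serpinb9 and Serpinb9b are close copies that can share reads. Serpinf1, PEDF, passed 2-fold with TMM scaling and not by total counts, and Serpinh1, the collagen chaperone HSP47, had 1233 CPM on day 7 and 1213 CPM on day 0.

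Cell contacts changed as well. Of 19 tested cadherin, protocadherin and gap junction genes 5 rose and 8 fell (median -0.94). Cdh11, osteoblast cadherin, had 682 CPM on day 7 and 194 CPM on day 0, and Panx3, a pannexin of osteoblasts and chondrocytes, 85.4 CPM on day 7 and 11.1 CPM on day 0, 3.51-fold (3.37 to 3.67) and 7.69-fold (6.51 to 9.14) higher. Gja1, connexin 43, the main gap junction protein of bone cells, had 17.7 CPM on day 7 and 142 CPM on day 0, 8.03-fold (7.02 to 9.22) lower, and Panx1 fell 5.93-fold (2.91 to 13.6). Panx3 and Panx1 went in opposite directions. Fat1 had 1253 CPM on day 7 and 775 CPM on day 0 and stayed within 2-fold. Of 35 protocadherins matched by symbol 17 fell and 1, Pcdhb15, named after its value was seen, rose (median -0.92); the clustered genes share sequence, so their counts are uncertain one by one.

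Among 25 immunoglobulin, selectin and stem cell surface genes 4 rose and 12 fell (median -0.53). Selp, P-selectin, had 1 count on day 7 and 177 on day 0, and Alcam, an adhesion molecule, 0 and 129, at least 40.97-fold lower. Ly6a, known from stem cell sorting, and its family neighbour Ly6c1 fell 5.09-fold (3.48 to 7.68) and 3.39-fold (2.403 to 4.87). Nt5e, the ectonucleotidase CD73, had 206 CPM on day 7 and 37.7 CPM on day 0, Lrig1, a brake on EGF receptors, rose 2.32-fold (2.11 to 2.55), Cntn3 rose 2.41-fold (1.99 to 2.93), and Cdon, a hedgehog co-receptor, rose with TMM factors but not by total counts. Of 15 tetraspanin genes, which organise membrane domains and were matched by symbol, 9 fell and none rose, with a median of -1.49. Tspan7 had 3.02 CPM on day 7 and 31.7 CPM on day 0, and Tspan13 4.204 CPM on day 7 and 19.9 CPM on day 0; both were chosen after their values were seen.

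**Figure D3:**
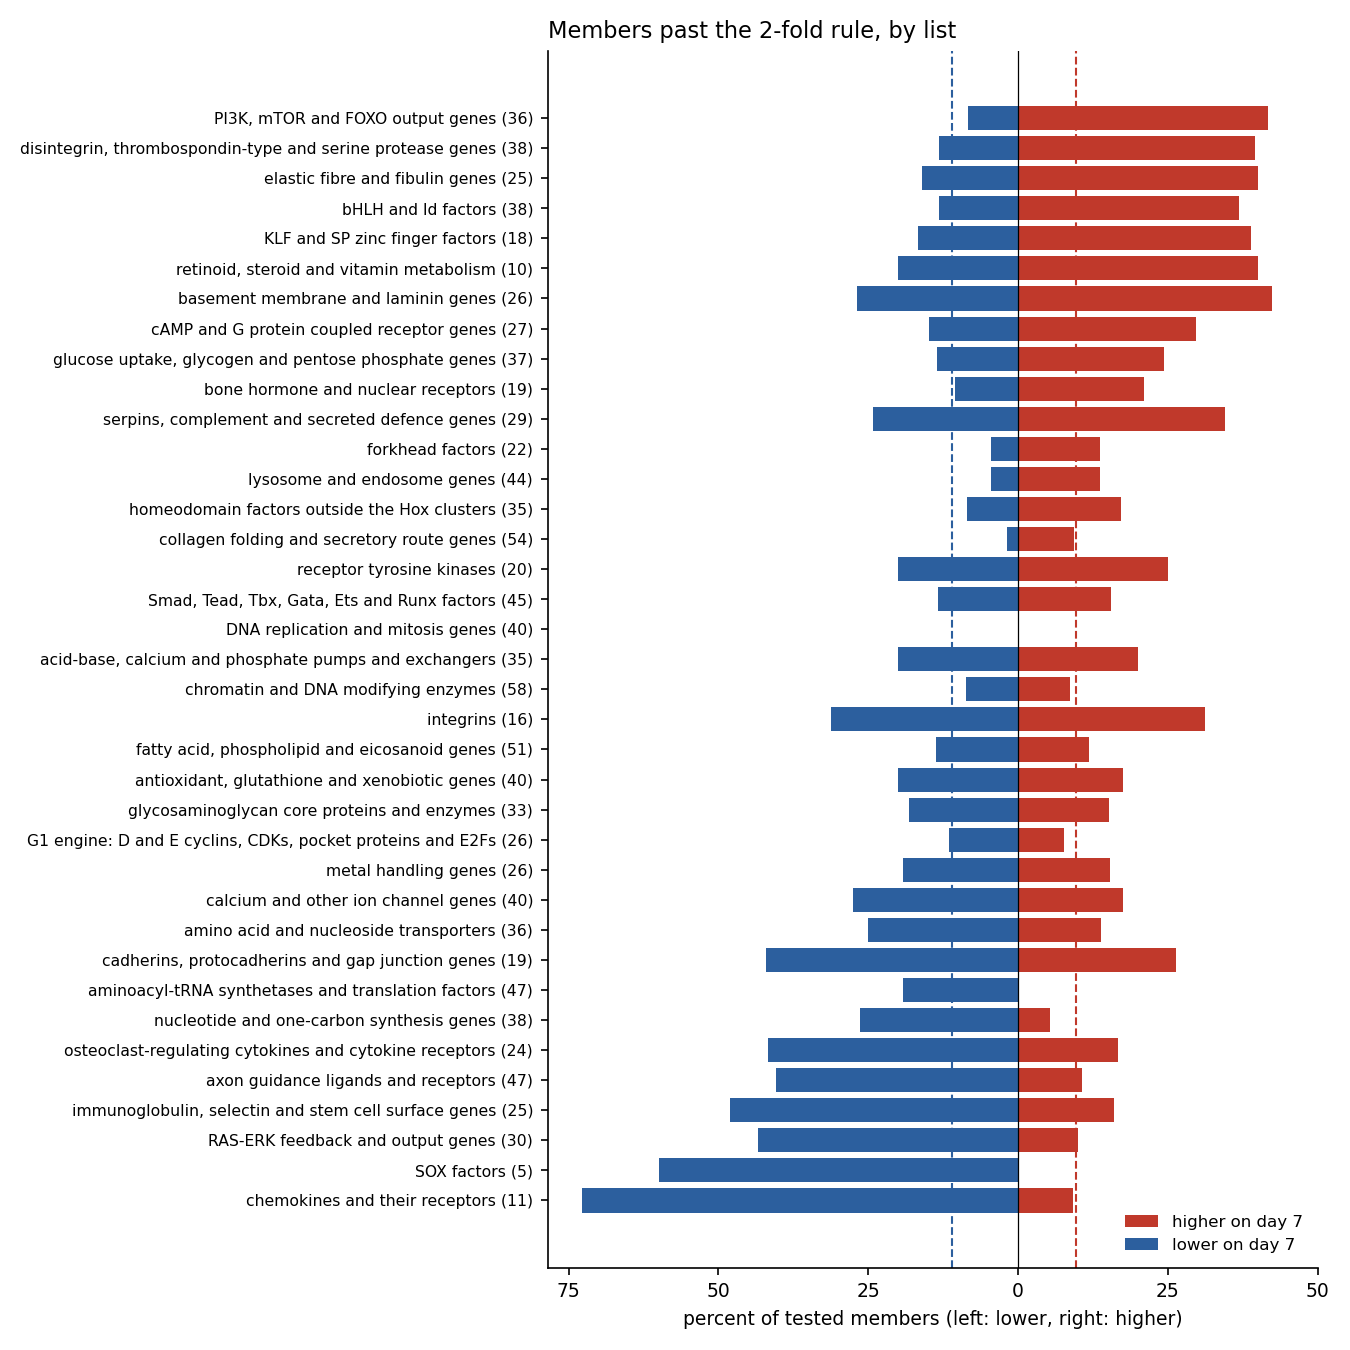
Bars give the percentage of tested genes in each list that rose (right, red) or fell (left, blue) on day 7 by the 2-fold rule, with the number tested in brackets. Dashed lines mark the percentages over all 12046 genes, 9.73% higher and 11.0% lower; chemokines, SOX factors and the immunoglobulin, selectin and stem cell surface genes extend farthest to the left, while no gene of DNA replication and mitosis passed.

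Ion channels and pumps showed no common direction. Of 40 ion channel genes 7 rose and 11 fell (median -0.10), and among the voltage-gated calcium channels Cacna1g, a T-type channel gene, had 289 CPM on day 7 and 75.4 CPM on day 0, 3.83-fold (3.58 to 4.097) higher, and Cacna1c, an L-type channel gene, 23.7 CPM on day 7 and 77.9 CPM on day 0, 3.29-fold (2.902 to 3.74) lower. Stim1, the sensor of store-operated calcium entry, rose 2.29-fold (2.13 to 2.46). Kcnj2, an inward rectifier, had 4 counts on day 7 and 106 on day 0. Pumps and exchangers had 7 of 35 up and 7 down (median -0.12). Of 8 carbonic anhydrases matched by symbol 5 rose and none fell (median 0.81), but of these 5 only Car9 was above 10 CPM, and Car2, the osteoclast and red cell form, had 27 counts on day 7 and 9 on day 0. Aqp1, the water channel, rose 2.61-fold (2.31 to 2.95), and Slc4a2, an anion exchanger, and Slc12a2, the sodium-potassium-chloride cotransporter, fell 2.14-fold (1.98 to 2.31) and 2.66-fold (2.44 to 2.900).

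Amino acid transporters had 5 of 36 up, 13.9% beside 9.73% of all genes, and 9 down, 25% beside 11.0% (median -0.06). Slc36a2, a proton-coupled transporter of glycine and proline, had 1501 counts on day 7 and 3 on day 0. Slc38a1, a glutamine transporter, had 6 counts on day 7 and 298 on day 0, whereas its relative Slc38a2 had 683 CPM on day 7 and 584 CPM on day 0 and did not pass the rule. The lactate transporters separated, with Slc16a1, MCT1, down 4.13-fold (3.75 to 4.55) and Slc16a3, MCT4, up 2.04-fold (1.94 to 2.14), the second not by total counts. Of 26 metal handling genes 4 rose and 5 fell (median -0.01, or -0.17 by total counts). Iron uptake genes were among those that fell: Tfrc, the transferrin receptor, had 35.6 CPM on day 7 and 113 CPM on day 0, and the ferrireductases Steap1 and Steap2 fell 11.5-fold (7.68 to 17.8) and 2.68-fold (2.48 to 2.896), while the ferritin genes Fth1 and Ftl1 had 449.9 and 435 CPM on day 7, against 471 and 435 CPM on day 0.

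Genes of glucose and lipid use moved in both directions. Of 37 glucose uptake, glycogen and pentose phosphate genes 9 rose and 5 fell (median 0.22). Slc2a3, the high-affinity glucose transporter, had 38.6 CPM on day 7 and 1.62 CPM on day 0, and Pdk4, which closes pyruvate dehydrogenase, 489 CPM on day 7 and 69.2 CPM on day 0, 23.9-fold (15.7 to 37.98) and 7.06-fold (6.602 to 7.56) higher. Slc2a6, Me2, Pgd, Pck2 and Rpia fell, of which Pgd and Rpia are enzymes of the pentose phosphate route, at 2.34-fold (1.91 to 2.89) and 2.09-fold (1.65 to 2.68). Among 51 fatty acid, phospholipid and eicosanoid genes 6 rose, 11.8% beside 9.73% of all genes, and 7 fell, 13.7% beside 11.0% (median -0.34). Both shares were thus near those of all genes. Elovl6, the elongase of palmitate, had 42.7 CPM on day 7 and 219 CPM on day 0. Fads2, a desaturase, had 51.04 CPM on day 7 and 169 CPM on day 0, and Acsl5, an acyl-CoA synthetase, 17.2 CPM on day 7 and 69.3 CPM on day 0. Smpd3, the neutral sphingomyelinase that is needed for bone and tooth mineralisation in mice, had 35.6 CPM on day 7 and 5.69 CPM on day 0, 6.24-fold (4.93 to 8.003) higher, and Enpp2, autotaxin, rose 3.46-fold (2.34 to 5.24). Lpin1 and Lpin3, phosphatidate phosphatases of glycerolipid synthesis, rose, Lpin1 not by total counts, and the prostaglandin synthases Ptgs1 and Ptgs2 fell. By total counts 3 of the 51 rose and 9 fell.

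Of 40 antioxidant, glutathione and xenobiotic genes 7 rose and 8 fell (median -0.18). Selenbp1, a selenium-binding methanethiol oxidase gene, had 2129 counts on day 7 and 5 on day 0, and Sepp1, the selenium transport protein, had 453 CPM on day 7 and 66.98 CPM on day 0. Gpx1, a selenium-dependent peroxidase, had 29.1 CPM on day 7 and 99.8 CPM on day 0, 3.43-fold (3.07 to 3.85) lower. Gclc, the catalytic subunit of glutathione synthesis, rose 3.66-fold (3.38 to 3.96), whereas Gclm, the modifier subunit of the same enzyme, fell 2.21-fold (1.89 to 2.59), and Hmox1, heme oxygenase 1, fell 2.91-fold (2.52 to 3.38). Sepp1 and Gpx1 therefore moved in opposite directions. Nucleotide and one-carbon synthesis genes had 2 of 38 up and 10 down (median -0.61). Glul, glutamine synthetase, had 657 CPM on day 7 and 157 CPM on day 0, 4.18-fold (3.99 to 4.38) higher, and Asns, which consumes glutamine, fell 3.402-fold (3.16 to 3.67); Psat1 and Psph, of serine synthesis, fell 3.84-fold (3.56 to 4.15) and 3.49-fold (2.895 to 4.22).

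Of 54 collagen folding and secretory genes 5 rose, 9.26% beside 9.73% of all genes, and 1 fell, 1.85% beside 11.0% (median 0.38). Those that rose were the collagen hydroxylase genes Plod2 (1197 CPM on day 7 and 334 CPM on day 0), P4ha1 (612 CPM on day 7 and 211 CPM on day 0) and P4ha2 (342 CPM on day 7 and 110.1 CPM on day 0), the procollagen processing enhancer Pcolce2, and Creb3l1, a membrane-bound factor of collagen secretion in osteoblasts, 2.49-fold (2.33 to 2.67) higher. P3h2, a prolyl 3-hydroxylase linked to basement membrane collagen, had 9 counts on day 7 and 177 on day 0. Serpinh1, P4hb and Pcolce, abundant on both days, did not pass the rule. By contrast, of 47 aminoacyl-tRNA synthetases and translation factors 9 fell and none rose (median -0.59), or 14 fell by total counts: Bop1, a ribosome assembly factor, had 21.2 CPM on day 7 and 74.01 CPM on day 0, Fbl, fibrillarin, 7.38 CPM on day 7 and 17.1 CPM on day 0, and Aars, the alanine enzyme, 218 CPM on day 7 and 446 CPM on day 0. Eef1a1 had 2727 CPM on day 7 and 2835 CPM on day 0, and 1 of 75 ribosomal protein genes passed the rule.

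Lysosome and endosome genes had 6 of 44 up, 13.6% beside 9.73% of all genes, and 2, Sort1 and Cln3, down, 4.55% beside 11.0% (median 0.42). Naglu, which degrades heparan sulfate, had 136 CPM on day 7 and 43.7 CPM on day 0, Lgmn, the asparaginyl endopeptidase legumain, 436 CPM on day 7 and 178 CPM on day 0, and Gm2a, a glycolipid activator protein, 267 CPM on day 7 and 112 CPM on day 0; Npc1 rose with TMM factors but not by total counts. Psap, Lamp1 and Ctsd, the abundant members, stayed within 2-fold. Of 58 chromatin and DNA modifying enzymes 5 rose, 8.62% beside 9.73% of all genes, and 5 fell, 8.62% beside 11.0% (median -0.02). Kdm7a, a demethylase of repressive histone marks, had 612 CPM on day 7 and 83.3 CPM on day 0, 7.35-fold (6.92 to 7.82) higher, and Tet2, which oxidises methylcytosine, had 221 CPM on day 7 and 84.3 CPM on day 0, 2.62-fold (2.45 to 2.81) higher; Kdm4b and Chd7 rose as well, and Ezh1 with TMM factors but not by total counts. Prmt1, an arginine methyltransferase, had 40.1 CPM on day 7 and 123 CPM on day 0, and Hdac1, a histone deacetylase, 54.2 CPM on day 7 and 133 CPM on day 0, 3.08-fold (2.79 to 3.39) and 2.45-fold (2.25 to 2.67) lower. Kat2a fell 2.05-fold (1.87 to 2.24), while Chd3 and Sirt1 fell by little more than 2-fold and not with TMM factors from protein-coding genes alone.

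Some genes were counted on 1 of the 2 days alone. Of the tested genes 31 had 0 counts on day 0 and 28 had 0 counts on day 7. Those with 10 CPM or more on day 7 and 0 counts on day 0 were Hif3a, Hp, Lamc3, Trdn, Orm1, Mettl21e, Mmp8 and Fhl5. Trdn, triadin of the muscle calcium release unit, had 632 counts, Mettl21e, a methyltransferase gene of muscle, 321, Mmp8, neutrophil collagenase, 170, and Fhl5, a LIM protein gene, 164. Against a floor of 3 counts for day 0, Trdn was at least 221-fold and Mettl21e at least 112-fold higher, and the bounds for Mmp8 and Fhl5 were 59.5-fold and 57.4-fold. In the other direction Samd12 alone had 10 CPM or more on day 0 and 0 counts on day 7.

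Some genes that changed lay beside others that changed the same way. In the order of tested genes along the main chromosomes there were 24 runs of at least 3 neighbours that all rose, with 80 genes, and 36 runs of neighbours that all fell, with 122 genes; what share of such runs the counts alone would give was not tested. On chromosome 9, from 5298517 to 6534284 (mm10), the inflammatory caspase genes Casp1, Casp4 and Casp12 and the growth factor gene Pdgfd rose together, Casp1 with 337 counts on day 7 and 14 on day 0. The coagulation factor genes F7 and F10 and their neighbour Mcf2l rose on chromosome 8 between 12873544 and 13056676, F7 with 254 counts against 2 and F10 with 21 against 0. On chromosome 1, between 133910304 and 134079155, the neighbours Prelp and Fmod, both small leucine-rich proteoglycan genes, rose with Btg2, an antiproliferative gene; Prelp had 6.93 CPM on day 7 and 0.703 CPM on day 0. Runs of both directions thus included gene families that arose by duplication and unrelated neighbours.

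Among the runs that fell, 8 genes of the gamma protocadherin cluster on chromosome 18 made the longest. Sema3d, Sema3a and Sema3e fell together on chromosome 5 between 12383166 and 14256689. The guanylate-binding proteins Gbp7, Gbp3, Gbp2b and Gbp2, which are induced by interferon, lay with Kyat3 in a run of 5 on chromosome 3 between 142530336 and 142744911, and all 6 guanylate-binding protein genes tested fell (median -1.70, or -1.95 with the gene at 0 counts set at its bound); as close copies they can share reads. Samd12, Tnfrsf11b and Nov fell together on chromosome 15, and Abcb1a and Abcb1b, the paralogous multidrug efflux pumps, fell with Rundc3b on chromosome 5, at 4.13-fold (2.55 to 6.99) and 2.402-fold (2.08 to 2.78). By chromosome, the share of genes that rose was largest on chromosome 9 (12.97% of 671) and that of genes that fell on chromosome 18 (16.6% of 331).

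The promoters of changed genes were poorer in CpG than those of the rest. A RefSeq promoter window of 300 bases, most of them before the start, was matched for 8926 of the 12046 genes, and 4100 of these began exactly at the listed start. A CpG ratio, observed over expected from base composition, below 0.5 was found in 38.8% of 815 windows of genes that rose, in 31.8% of 922 of genes that fell and in 14.4% of 7189 of genes within 2-fold. The ETS site CCGGAAG was in 7.24% of windows of genes that rose, 9.65% of those that fell and 21.3% of the others, and the GC box GGGCGG in 59.9%, 58.6% and 67.4%. Both changed groups thus differed from the genes within 2-fold in the same way.

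The TATA box TATAAA was in 9.57% of windows of genes that rose, 9.11% of those that fell and 5.74% of the others, against 13.6% of all 32851 windows in the table. The AP-1 site TGANTCA was in 6.01%, 6.62% and 4.17%, and the amino acid response element TGATGNAA, which is carried by Asns, in 3.44%, 3.15% and 1.88%, against 3.97% of all windows. The glucocorticoid receptor palindrome, searched as GNACA and TGTNC with 3 bases between them and shown above for Mt1, was in 0.736% of windows of genes that rose (6 windows), 0.217% of those that fell (2 windows) and 0.236% of the others (17 windows), against 0.475% of all windows. The hypoxia core ACGTGC, shown for Car9, was in 6.99%, 8.13% and 8.42%. All letters were searched on both strands of these windows, overlapping matches included, and windows differ in base composition, which was not adjusted for. The listed transcripts of genes that rose, fell or stayed had median lengths of 3403, 3605 and 3270 bases.

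**Figure D4:**
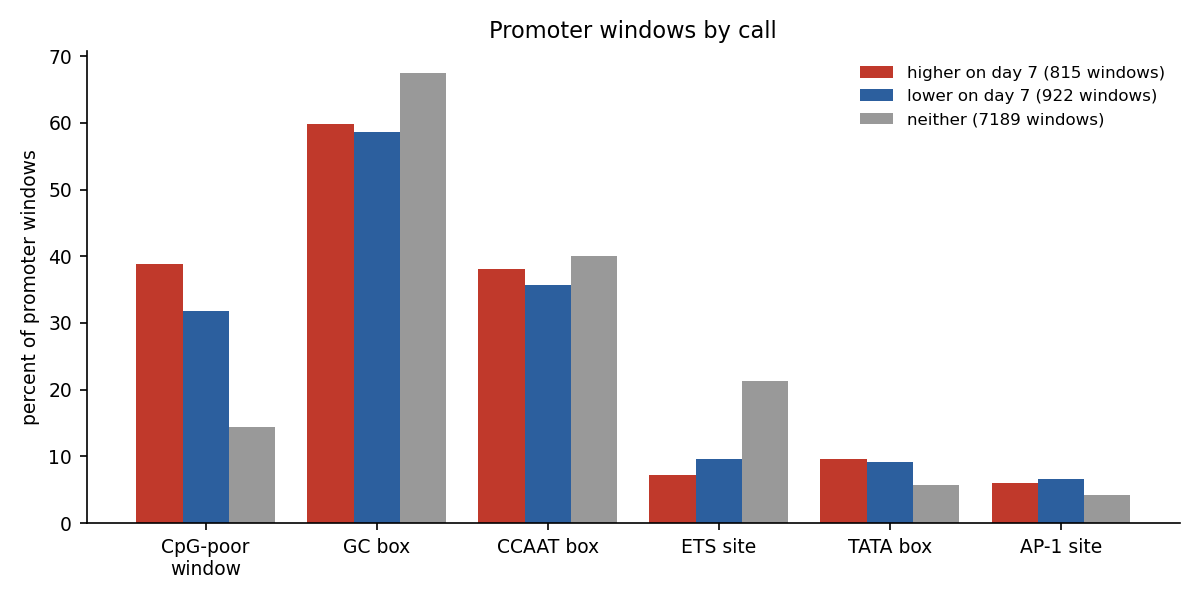
Bars give the percentage of 300-base promoter windows with a CpG ratio below 0.5 or at least 1 match to a motif, for genes that rose (815 windows), fell (922) or did neither (7189). Red and blue bars stand together apart from grey for CpG-poor windows and the ETS site, and nearly level with it for the CCAAT box.

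Values of the day 14 library are given for the genes the comparison turns on, and both later libraries are set against the same day 0 library. In the order of days 0, 7 and 14 Sp7 had 9.699, 224 and 248 CPM, Ibsp 0.422, 69.9 and 85.7 CPM, and Alpl 53.1, 200.4 and 297 CPM. Tnn had 0.0703, 415 and 238 CPM, so its highest value was that of day 7. Ccnd1 had 37.04, 0.148 and 1.37 CPM, Ccnd2 143, 4.43 and 6.84 CPM, and Gja1 142, 17.7 and 51.03 CPM. The 3 genes that fell were lowest on day 7 and remained below their day 0 level on day 14, Gja1 by the smallest fold. All genes of this paragraph were chosen with their day 7 change known, so an extreme on day 7 follows in part from the choice.

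**Figure D5:**
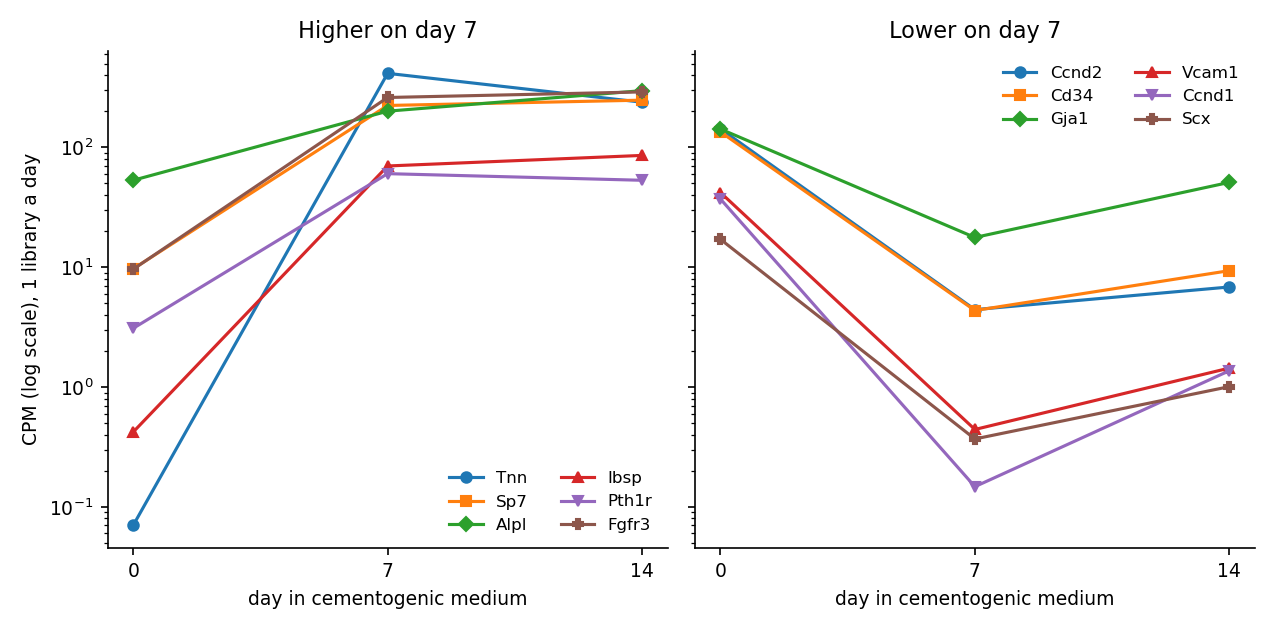
Lines join the CPM (log scale) of the single libraries of day 0, 7 and 14 for 6 genes that rose (left: Tnn, Sp7, Alpl, Ibsp, Pth1r, Fgfr3) and 6 that fell (right: Ccnd2, Cd34, Gja1, Vcam1, Ccnd1, Scx) on day 7. Most of the distance was covered between day 0 and day 7, but the genes were picked for that change, so the large first step follows from the choice. There is no error bar because each day had 1 library.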

How the data were processed

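Total RNA of 3 libraries of OCCM-30 cells was sequenced, 1 for each of day 0, 7 and 14. The deposited gene table held whole-number counts per gene made by the authors, and the deposited FPKM values divide the authors' counts by the listed gene length and the library total. HISAT2, TopHat, Cufflinks, HTSeq and DESeq with the mm10 build are named in the submitters' processing notes; no source used here gives versions, roles or the strand setting of the counting, so reads of overlapping genes on opposite strands cannot be told apart. Groups came from the sample labels and column names.

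Counts deposited by the authors were scaled with TMM factors (edgeR 4.0.16, R 4.3.3) of 0.966, 1.08 and 0.962 for day 7, 0 and 14, computed over the whole table. No test across replicates was possible. The fold is the ratio of scaled counts, with an exact Clopper-Pearson 95% interval conditional on the summed count, and where a gene had 0 counts the floor was 3 counts per library, or 0.221 CPM on day 7 and 0.211 CPM on day 0. The log2 ratios computed from the deposited counts add a pseudocount of 0.5 CPM and understate changes of low genes. The rule was tried before use on simulated counts drawn with counting error alone. Spread between replicates was not simulated, so that trial does not cover it.

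Lists of genes are described by counts and medians, without a test. The members and lists were chosen with earlier results of these data known. Named were the 5 markers, up to 4 rises and 4 falls of each list (all where a direction had 5 or fewer) with its 3 most abundant members by FPKM, the 15 largest gains and losses in CPM, the 12 genes of highest FPKM on day 7, the 6 largest rises and falls in each of 3 abundance classes, runs of neighbouring genes, and genes at 0 counts on one day and 10 CPM on the other. A few genes that the rule names are not reported here. Genes outside this rule were chosen after their values were seen: those described so in the text, and Ccnd3, Gclm, Ptgs1, Ptgs2, Smad1, Smad2 and Smad5, as relatives of named genes. Tried in place of these choices were size factors of DESeq2 1.42.0, total counts, TMM factors from protein-coding genes, a 4-fold threshold, another minimum, the deposited FPKM, and 0.1 or 2 CPM as the pseudocount. The software was scipy 1.17.1, pandas 2.3.3, numpy 2.4.6 and matplotlib 3.10.9 under Python 3.11.15. Of the genes tested 310 lay off the main chromosomes, where reads can be shared with a chromosomal copy. Promoter sequences are RefSeq's (GRCm38.p6).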

Additional observations from a re-analysis of the deposited data

How the results depend on the processing

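At a 4-fold threshold 449 genes were higher and 469 lower on day 7. Under the other alternatives both counts stayed within 1.5 times those reported: 1137 higher and 1364 lower with DESeq2 size factors, 965 and 1677 by total counts or the deposited FPKM, 1205 and 1285 with TMM factors from protein-coding genes, 870 and 929 of 10687 genes with at least 100 counts, and 1328 and 1546 without a minimum. Without genes off the main chromosomes, an alternative chosen after seeing the data, 1136 were higher and 1289 lower. Of 592 named genes none that had passed the rule changed direction, but this was fixed by the settings. The largest scaling shift of the median log2 ratio was -0.15, by total counts, and the other settings could not change a sign. The sign of named genes that had not passed it was not followed. The call was lost by 8 genes with DESeq2 size factors, 31 by total counts, 4 with TMM factors from protein-coding genes and 241 at 4-fold. Of the genes that passed, 46.9% were higher, or 36.5% by total counts, so a list median within 0.15 of 0 carries no direction. No paired analysis was possible because each day had 1 library, and no library could be left out for the same reason. Depth limits genes of few counts: 40 genes differed at least 2-fold with an interval that included 1.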
